A study of Lens culinaris with 18 samples.

Results

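The seed coat with attached endosperm of mature green lentil (Lens culinaris) seeds was compared between the cultivars CDC Redmoon and CDC Gold. The comparison used 6 of the 18 libraries of the study, 3 labelled Redmoon and 3 labelled Gold, and every gene of the deposited tables was eligible, 58243 in all. The other libraries came from embryos of both cultivars and from both tissues of M11, a natural line with a mutated allele of the lipid transfer protein gene LcLTP3b, and they entered only where the cultivars' values were set beside them. Redmoon and Gold are separate breeding cultivars. In the study's test with a restriction enzyme, an LcLTP3b exon amplified from M11 was cut, and that from Redmoon and from Gold was not. Poly(A) RNA was sequenced from both. The labels give no plant, age or batch for any library, so the p-values below measure the spread between libraries, which may be technical.

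The seed coat is maternal tissue. It wraps the seed, loads nutrients into it and later becomes the pigmented protective layer. The endosperm of a legume seed is a thin remnant by the time the cotyledons have filled, and storage protein is made mainly in the cotyledons of the embryo. Vicilin, the 7S globulin, is one of the main storage proteins of lentil and includes the allergen Len c1. Plant lipid transfer proteins are small extracellular proteins that bind lipids, and LcLTP3b encodes the allergen Len c3. The identifiers used in the tables carry a chromosome number but no gene name, so only the vicilin genes and LcLTP3b are given a function here.

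The cultivar labels of the 2 tissues did not go together, and this bears on every direction given below. Of 15951 genes tested in both seed coat and embryo, 9674 (60.6%) differed in opposite directions between Redmoon and Gold (Pearson r = -0.75 and Spearman rho = -0.34 across genes, which are not independent replicates). The larger the difference, the more complete was the opposition. Among 1273 genes called in both tissues (edgeR, adjusted p under 0.05) with an absolute log2 fold change of at least 1 in each, 1099 had opposite signs. Among the 447 with at least 3 in each, 446 did. In embryos the choice of scaling mattered, since library totals in place of TMM moved the median log2 fold change of all genes to 0.61, against -0.01 with TMM. With library totals in both tissues, an alternative added after the data were seen, opposite signs were found for 10059 of the 15951 genes and for 449 of 451 with at least 3 in each. The labels of Redmoon and Gold may therefore be exchanged in 1 tissue, and which tissue that would be cannot be told apart from these tables. The groups are named below by their library labels, and every difference is the libraries labelled Redmoon minus those labelled Gold. If the labels of the seed coat libraries were the exchanged ones, each sign in the seed coat would turn round, while its size and its test would stay.

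**Figure D1:**
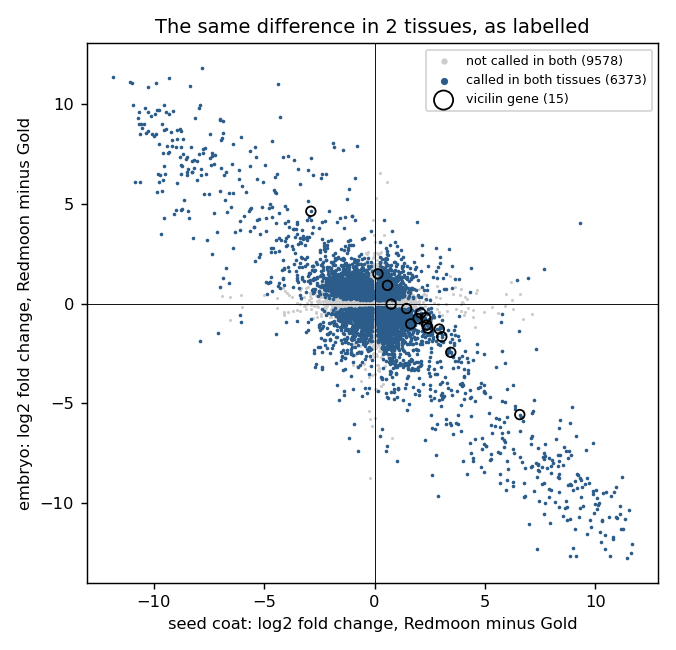
Each point is 1 gene, with the log2 fold change of Redmoon minus Gold in seed coat on the horizontal axis and the same in embryo on the vertical axis, for 15951 genes tested in both. Genes with large differences lie along the falling diagonal (446 of 447 beyond 3 in both), and circles mark 15 vicilin genes.

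The libraries differed in depth. The Redmoon libraries held 10797679, 7571791 and 11655232 counts, against 23324245, 21171045 and 24309401 in the Gold libraries, and between 22797 and 23919 genes had a count in a Redmoon library, against 25604 to 26061 in a Gold library. Low genes were thus measured with less precision in Redmoon. Replicates lay close together, with a biological coefficient of variation of 3.32% in Redmoon and 3.11% in Gold. The tissue label was checked with 740 genes whose level in M11 seed coats was 32 times that in M11 embryos or more. These genes took 26.6% of the counts in Redmoon seed coats and 26.5% in Gold seed coats, against 0.0872% in embryos labelled Redmoon and 0.0867% in embryos labelled Gold.

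Most of the expressed transcriptome differed between the cultivars, by small steps. With edgeR's quasi-likelihood test and a Benjamini-Hochberg adjusted p under 0.05, 13168 of 19335 genes tested were called (68.1%). Redmoon was higher for 6524 of them (33.7% of the genes tested) and lower for 6644 (34.4%), and the median absolute log2 fold change of a called gene was 0.66, or 1.58-fold. A call with an estimated absolute log2 fold change of at least 1 was made for 4578 genes (23.7%). Of these, 1858 were higher and 2720 lower in Redmoon. The balance turned with size, since beyond an absolute log2 fold change of 3 there were 633 genes higher and 609 lower, and beyond 5 there were 368 higher and 295 lower. When edgeR tested for a difference greater than 2-fold (glmTreat), 3232 genes passed (16.7%). The 3 Redmoon libraries did not overlap the 3 Gold libraries in CPM (counts per 1000000 of the library total) for 13684 genes (70.8%).

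**Figure D2:**
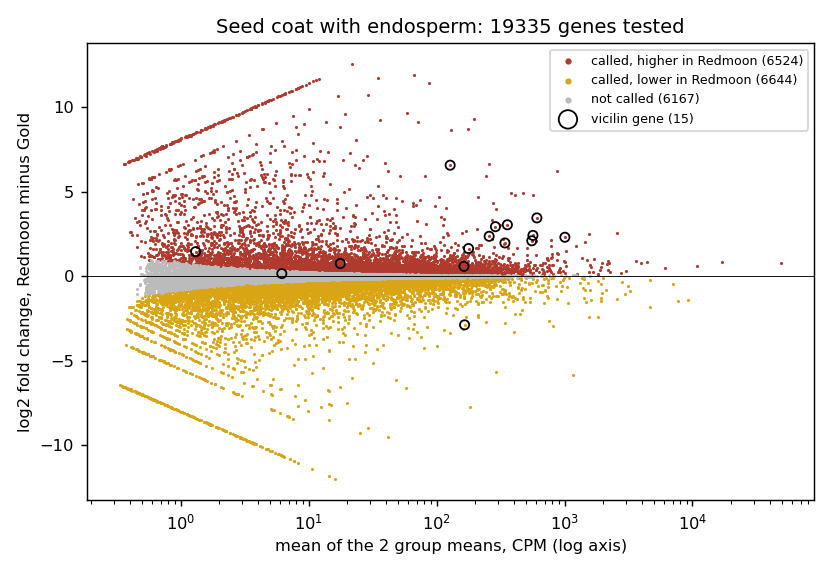
Each point is 1 of 19335 genes tested in seed coat with endosperm, with its mean CPM on a log axis and the log2 fold change of Redmoon minus Gold on the vertical axis, coloured by the call of edgeR's quasi-likelihood test. Called genes cover the whole range of levels (6524 higher and 6644 lower in Redmoon), and of the 15 circled vicilin genes 1 lies clearly below 0.

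The size of the differences went with the level of the gene. The genes tested were put in order of mean CPM and cut into 4 equal parts. In the lowest part, 59.3% were called and 46.0% were called with an absolute log2 fold change of at least 1. In the highest part, above 41.2 CPM, 79.2% were called, but only 10.7% passed with that size. Strongly expressed genes thus differed often and little, and large differences were more frequent among weakly expressed genes, for which the standard error was also larger (median 0.33 in the lowest part and 0.05 in the highest).

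The most abundant transcripts showed what such steps look like. Lcu.2RBY.5g059060 was the first gene of every seed coat library of the cultivars, with 57647, 65925 and 58968 CPM in Redmoon, against 35985, 43345 and 35299 CPM in Gold. It was near absent from embryos, with 2.42 CPM in those labelled Redmoon and 5.87 CPM in those labelled Gold. The Redmoon seed coats stood above all Gold seed coats, and the gene took 6.08% of all counts in Redmoon and 3.82% in Gold (log2 fold change 0.77, SE 0.05, adjusted p = 1.08e-18, edgeR). Of the 10 genes with the highest mean level, 5 were higher and 5 lower in Redmoon, with log2 fold changes between -1.85 and 0.87. Lcu.2RBY.4g023050 was also higher in Redmoon, at 21251, 21854 and 20692 CPM, against 12641, 12289 and 12442 CPM in Gold. The largest difference among the 10 went the other way, at Lcu.2RBY.3g005030, with 1935, 1945 and 1897 CPM in Redmoon, against 7548, 7273 and 7435 CPM in Gold. Lcu.2RBY.4g013650 and Lcu.2RBY.3g072260 were lower in Redmoon too, by log2 fold changes of -1.40 and -1.46. At the other end, Lcu.2RBY.5g033330 was the most alike of the 100 most abundant genes, with 1558, 1538 and 1487 CPM in Redmoon, against 1653, 1616 and 1595 CPM in Gold (log2 fold change 0.01, SE 0.03, adjusted p = 0.793, edgeR). Its CPM values lie lower in Redmoon in every library because the log2 fold change is on the TMM scale, which sets Redmoon libraries about 0.1 higher on the log2 scale than library totals do, and with library totals its value was -0.086.

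Vicilin transcripts summed to far less in the seed coat than in embryos, and their seed coat sum was higher in Redmoon. The 16 vicilin genes listed by the study summed to 7152, 7432 and 7827 CPM in Redmoon seed coats, against 1703, 1780 and 1938 CPM in Gold seed coats. The groups did not overlap, and the mean of Redmoon was 4.13 times that of Gold (7470 ± 339 against 1807 ± 120 CPM, SD, n = 3 each, exact two-sided permutation p = 0.1, the smallest that 3 against 3 libraries allow). M11 seed coats lay just above Gold at 2102 ± 135 CPM (SD, n = 3). The same genes were far more abundant in embryos, with 341535 ± 11173 CPM in embryos labelled Redmoon and 353805 ± 9968 CPM in those labelled Gold (SD, n = 3 each, exact p = 0.2). In tissue samples of this kind, fewer cells of a type and less RNA per cell cannot be told apart.

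Of the 16 vicilin genes, 15 could be tested in seed coat, 13 were higher in Redmoon, 1 was lower and 1 was not called, while over all genes tested 33.7% were higher and 34.4% lower. The list was chosen by the study on these samples, so the count is not independent evidence of direction. Over the 14 genes that the study listed for seed coat, 13 were higher and 1 lower, and their median log2 fold change was 2.20, against -0.01 over all genes tested. The 16th gene, Lcu.2RBY.6g038600, had 0 counts in all 6 libraries. Vicilin genes belong to a family of similar sequences, so reads may have been split between members in the deposited counts. The sum above does not depend on a split among the 16 genes. Reads dropped or given to genes outside the list would change it, and this was not tested.

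The member with the largest difference was Lcu.2RBY.7g031050. It had 234, 247 and 276 CPM in Redmoon, against 2.23, 2.36 and 3.78 CPM in Gold (log2 fold change 6.58, SE 0.08, adjusted p = 1.73e-48, edgeR). All Redmoon libraries were far above all Gold libraries, and M11 lay between them at 17.6 CPM. The next was Lcu.2RBY.1g038070, with 1062, 1103 and 1158 CPM in Redmoon, against 104, 110 and 110 CPM in Gold (log2 fold change 3.45, SE 0.04, adjusted p = 1.32e-49, edgeR). The most abundant vicilin gene of the tissue, Lcu.2RBY.3g008770, had 1577, 1631 and 1755 CPM in Redmoon, against 341, 336 and 394 CPM in Gold (log2 fold change 2.31). Most of the family followed these genes. On chromosome 3, Lcu.2RBY.3g014420, Lcu.2RBY.3g014440 and Lcu.2RBY.3g014450 were higher in Redmoon by log2 fold changes of 2.10, 2.42 and 3.05. Lcu.2RBY.4g077560 had a log2 fold change of 1.64. On chromosome 6, Lcu.2RBY.6g038150, Lcu.2RBY.6g038160 and Lcu.2RBY.6g038570 had 2.37, 1.97 and 2.94.

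A smaller set of members moved less or the other way. Lcu.2RBY.6g038590 was higher in Redmoon by a log2 fold change of 0.59, with 179, 190 and 205 CPM, against 130, 122 and 156 CPM in Gold. Lcu.2RBY.5g065750 was higher by 0.75 and was the only vicilin gene of the list with a higher level in the cultivars' seed coats than in their embryos, at 21.7 CPM in Redmoon seed coats and 13.7 CPM in Gold seed coats, against 4.75 CPM in embryos labelled Redmoon and 2.95 CPM in embryos labelled Gold. Lcu.2RBY.7g031150 was called higher on 59 counts in Redmoon and 52 in Gold, a ratio of 2.60 in CPM (95% interval 1.76 to 3.85, from an exact binomial interval of the counts and for counting error only). Lcu.2RBY.6g035140 was not called, with 5.46, 7.92 and 5.75 CPM in Redmoon, against 6.43, 4.91 and 6.50 CPM in Gold. Its groups overlapped, and the log2 fold change was 0.15 (SE 0.16, adjusted p = 0.383, edgeR).

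Lcu.2RBY.6g038550 was the single vicilin gene lower in Redmoon. It had 34.8, 31.6 and 43.8 CPM in Redmoon seed coats, against 273, 295 and 314 CPM in Gold seed coats (log2 fold change -2.88, SE 0.06, adjusted p = 9.15e-39, edgeR). It lies between vicilin genes that were higher, with Lcu.2RBY.6g038570 as the nearest in number. In embryos its difference was the largest in favour of Redmoon among the vicilin genes, at 70552 CPM in those labelled Redmoon and 1833 CPM in those labelled Gold (log2 fold change 4.63). A close neighbour by number, Lcu.2RBY.6g038530, which is no vicilin gene of the list and was chosen after its values were seen, had 0 counts in the 3 Redmoon seed coats, against 15.0, 16.6 and 14.2 CPM in Gold seed coats, so it was at least 142-fold lower in Redmoon (against a floor of 3 counts over the group). In embryos the order was turned, with 8.80 CPM in those labelled Redmoon and 0 counts in those labelled Gold.

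**Figure D3:**
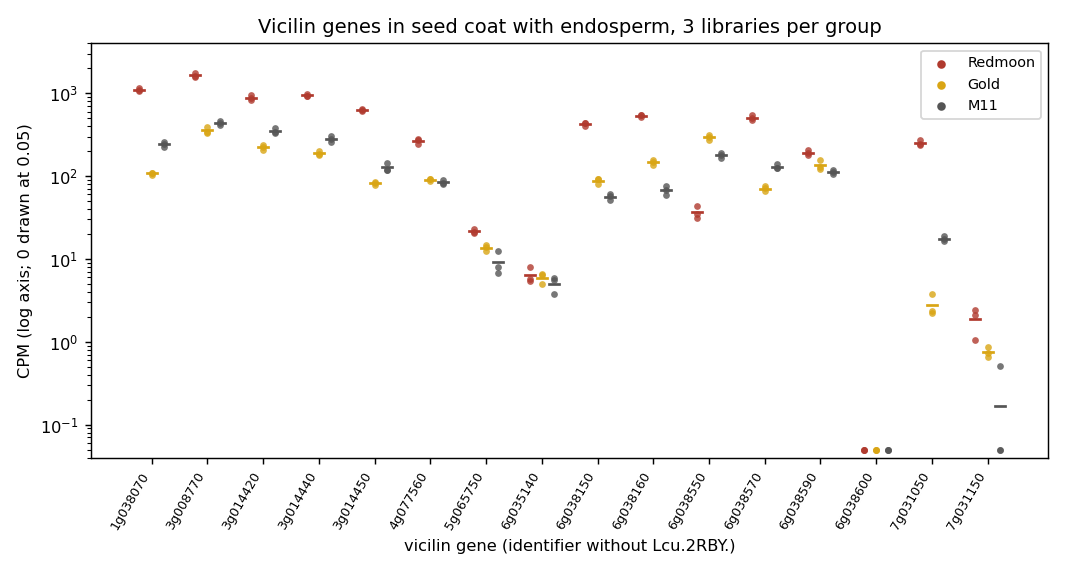
CPM of the 16 vicilin genes on a log axis in the seed coat libraries labelled Redmoon, Gold and M11, with 1 point per library, a line at each group mean and 0 drawn at 0.05. Redmoon lies above Gold for most members, far above it for 7g031050 (234 to 276 against 2.23 to 3.78 CPM) and below it for 6g038550.

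Embryo-rich genes other than vicilin were set beside the vicilin genes. A list of 131 genes other than vicilin, whose level in M11 embryos was 32 times that in M11 seed coats or more, was drawn from M11 libraries alone. Its summed level was 5561 to 6050 CPM in Redmoon seed coats and 1213 to 1366 CPM in Gold seed coats, and the mean of Redmoon was 4.50 times that of Gold (5845 ± 254 against 1300 ± 78.7 CPM, SD, n = 3 each, exact p = 0.1). Of the 131 genes, 85 passed the filter on low counts, and of these 62 were called higher in Redmoon, 9 lower and 14 neither (72.9% higher and 10.6% lower, against 33.7% and 34.4% over all genes tested), with a median log2 fold change of 1.34. Since a gene could pass the filter through the cultivar where it was high, the list was also counted without it, an alternative added after the data were seen, and 66 genes were then higher in Redmoon and 9 lower. A looser list, at 8 times in place of 32, was nearer to the shares over all genes, with 170 of 396 genes tested higher, 119 lower and a median of 0.21. Only 1 of the 131 genes had no count in all 6 libraries. The sum of the 131 genes thus differed between the cultivars by about as much as the vicilin sum did, and its part in the vicilin difference was not tested. Gene by gene the lists were less alike, with a median log2 fold change of 1.34 for this list and 2.10 for the 15 vicilin genes tested. Of the seed coat-rich genes, 376 of 732 tested were called higher, 291 lower and 65 neither (51.4% higher and 39.8% lower, against 33.7% and 34.4% over all genes tested), with a median log2 fold change of 0.16 and sums that overlapped (exact p = 0.6).

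Each vicilin gene's level in the seed coat was also set against its level in the embryo, for the 13 genes with at least 100 CPM in M11 embryos, a limit chosen after the values were seen. The limit left out Lcu.2RBY.5g065750, Lcu.2RBY.6g038600 and Lcu.2RBY.7g031150. Of these, Lcu.2RBY.5g065750 lay far outside the ranges below, at 456% for Redmoon and 462% for Gold with the same label. Against the other label it stood at 733% for Redmoon seed coats and 287% for Gold seed coats, and in M11 at 80.3%. When both tissues carried the same label, the extremes of this percentage lay orders of magnitude apart. In Redmoon the lowest was 0.0520%, the median 2.33% and the highest 82.4%, with quartiles of 1.92% and 3.14%. In Gold the lowest was 0.0298%, the median 0.477% and the highest 16.1%, with quartiles of 0.281% and 0.768%. The extremes were Lcu.2RBY.6g038550 and Lcu.2RBY.7g031050 under both labels. Against the embryos of the other label the extremes lay far closer together. The quartiles were then 2.00% and 2.69% for Redmoon seed coats and 0.468% and 0.911% for Gold seed coats. The Redmoon seed coats then held between 1.51% and 5.003% of the level in embryos labelled Gold (median 2.14%), and the Gold seed coats between 0.417% and 1.07% of the level in embryos labelled Redmoon (median 0.532%). For M11, whose tissues need no such pairing, the range was 0.531% to 2.29% (median 1.52%). On the log2 scale, the SD over the 13 genes was 2.31 for Redmoon and 2.22 for Gold with the same label. It was 0.44 for Redmoon and 0.51 for Gold with the other label, and 0.54 for M11. The percentages of a gene with the same and the other label differ only by its ratio between the cultivars' embryos. The smaller spread thus goes with the opposite signs given above and is no separate observation.

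**Figure D4:**
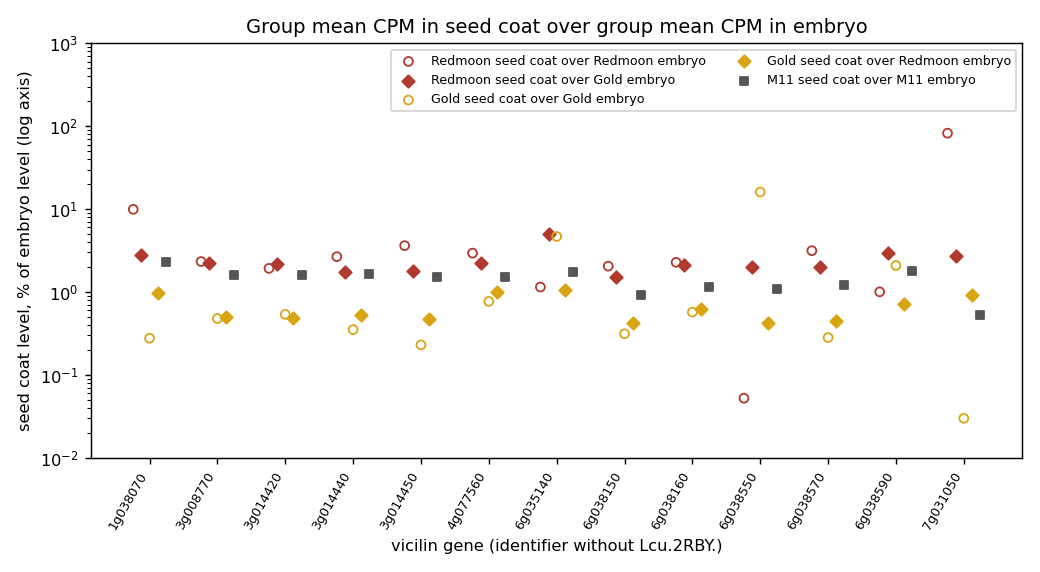
The mean CPM in seed coat, as a percentage of the mean CPM in embryo, on a log axis, for the 13 vicilin genes with at least 100 CPM in M11 embryos. Open circles use embryos of the same cultivar label and spread from 0.0298% to 82.4%, filled diamonds use embryos of the other label and lie from 0.417% to 5.003%, and squares show M11.

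The percentages of the other embryo-rich genes also varied less against the other label. For 70 genes of the list with at least 100 CPM in M11 embryos, 69 of which had a value above 0 in the cultivars, the SD of the log2 percentage was 1.91 for Redmoon and 2.30 for Gold with the same label, and 0.87 for Redmoon and 1.25 for Gold with the other label. The median percentage with the other label was 3.65% for Redmoon seed coats and 0.776% for Gold seed coats. These values describe genes of the same libraries, no test was run on them, and their smaller spread is no separate observation either.

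The lipid transfer protein gene LcLTP3b (Lcu.2RBY.4g013600) was low in both cultivars and was not called. It had 1.39, 1.85 and 1.37 CPM in Redmoon seed coats, against 1.63, 1.42 and 1.52 CPM in Gold seed coats. The groups overlapped, and the log2 fold change was 0.07 (SE 0.29, adjusted p = 0.830, edgeR), with its sign turned to -0.021 by library totals in place of TMM, on 45 counts in Redmoon and 105 in Gold. The 95% interval of the ratio of Redmoon over Gold in CPM, from counting error only, was 0.712 to 1.48. A difference within that range is thus not excluded by the counts, and the smallest detectable difference was not computed. M11 seed coats held 45.1 CPM of the gene. In embryos LcLTP3b had 20.2, 25.3 and 21.5 CPM in the libraries labelled Redmoon, against 23.6, 34.1 and 27.2 CPM in those labelled Gold. These levels overlapped, and the size of the called difference rested on the scaling, with a log2 fold change of -0.98 with TMM and -0.36 with library totals (adjusted p = 1.75e-07 and 0.0101, edgeR).

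The widest gaps between the cultivars were found in genes of unknown function. They were ranked by the distance on the log2 scale between the lowest library of the higher cultivar and the highest library of the lower one, with 0.5 CPM added. Lcu.2RBY.5g001660 had 392, 407 and 374 CPM in Redmoon, against 0.429, 0.661 and 0.864 CPM in Gold (log2 fold change 9.30). M11 was higher still, at 959 CPM. Lcu.2RBY.6g003450 had 373, 345 and 339 CPM in Redmoon, against 0.858, 1.04 and 0.782 CPM in Gold (log2 fold change 8.72), and in this case M11 was low, at 0.261 CPM. Lcu.2RBY.5g073610 had 271, 246 and 252 CPM in Redmoon, against 0.643, 0.614 and 0.740 CPM in Gold (log2 fold change 8.66). The groups of each of these genes were separated by more than 100 times the level of the lower group, and M11 was on the side of Redmoon for some of them and on the side of Gold for others. Lcu.2RBY.4g058260, Lcu.2RBY.6g063160, Lcu.2RBY.3g046440 and Lcu.2RBY.4g060150 had log2 fold changes of 9.16, 9.67, 9.29 and 8.09. Lcu.2RBY.1g035030 stood at 181, 176 and 169 CPM in Redmoon, against 4 counts over the 3 Gold libraries, a ratio of 3016 (95% interval 1177 to 11072). Lcu.2RBY.1g073290 had 38.4, 38.8 and 37.1 CPM in Redmoon, against 3 counts over the Gold libraries, a ratio of 872 (95% interval 297 to 4233).

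Lcu.2RBY.1g066160 was the only one of the 10 genes with the widest gap in favour of Redmoon that exceeded 100 CPM in embryos. It had 496, 497 and 520 CPM in Redmoon seed coats, against 5.14, 5.67 and 5.59 CPM in Gold seed coats (log2 fold change 6.62, SE 0.05, adjusted p = 4.48e-55, edgeR). In embryos it averaged 622 CPM in those labelled Redmoon and 20845 CPM in those labelled Gold. The seed coat with the higher level therefore carried the other label than the embryo with the higher level. Of the 10 genes, 4 could be tested in embryos, and 3 had the opposite sign there. The exception was Lcu.2RBY.5g001660, with 14.2 CPM in embryos labelled Redmoon and 0.741 CPM in those labelled Gold (log2 fold change 4.05). Opposite signs were also found for Lcu.2RBY.1g073290, with 0.0208 CPM in embryos labelled Redmoon and 52.3 CPM in those labelled Gold, and for Lcu.2RBY.4g060150, with 0.157 CPM in embryos labelled Redmoon and 27.4 CPM in those labelled Gold.

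In the other direction, Lcu.2RBY.1g059080 was the most abundant gene with a wide gap. It had 36.7, 39.0 and 33.9 CPM in Redmoon, against 2244, 2312 and 2296 CPM in Gold (log2 fold change -5.88, SE 0.05, adjusted p = 4.48e-55, edgeR). M11 lay between them at 265 CPM, and embryos of both cultivars held almost none. Lcu.2RBY.1g077940 had 11.7, 11.5 and 8.15 CPM in Redmoon, against 617, 518 and 577 CPM in Gold (log2 fold change -5.70), and 0 counts in the embryos of both. Lcu.2RBY.3g074100 had 2.13, 1.32 and 1.29 CPM in Redmoon, against 373, 351 and 376 CPM in Gold (log2 fold change -7.74), with 17.6 CPM in M11. These 3 genes were thus seed coat transcripts that only Gold, among the cultivars, held at a high level. Lcu.2RBY.7g055750, Lcu.2RBY.4g052990, Lcu.2RBY.1g049420, Lcu.2RBY.5g073110 and Lcu.2RBY.4g011410 had log2 fold changes of -6.61, -7.50, -6.13, -7.59 and -7.63. Lcu.2RBY.1g000760 had 3 counts over the Redmoon libraries, against 84.2, 81.0 and 86.4 CPM in Gold, which makes it 840 times as high in Gold (95% interval 287 to 4077). Lcu.2RBY.6g032760, also with 3 counts in Redmoon, was 584 times as high in Gold (95% interval 200 to 2833), at 64.0, 57.0 and 54.1 CPM.

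Some genes were on in the libraries of 1 cultivar only. On meant at least 2 CPM in all 3 libraries and off, in the other cultivar, at most 0.1 CPM in all 3, which allows 1 count in Redmoon replicates 1 and 3, 0 counts in Redmoon replicate 2 and up to 2 in each Gold library. By this rule 144 genes were on in Redmoon and off in Gold, and 118 were off in Redmoon and on in Gold. Without Redmoon replicate 2, the shallowest library compared, these numbers were 150 and 146, so most of their imbalance rested on that library. The group that was off had 0 counts in all its libraries for 92 of the 144 and 94 of the 118. With at least 5 CPM asked for on, 69 genes on in Redmoon and 56 on in Gold were left. Most were weak where they were on, with a median mean level of 5.67 CPM in Redmoon for the first set and 5.16 CPM in Gold for the second.

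The strongest of those on in Redmoon, after Lcu.2RBY.1g035030, was Lcu.2RBY.2g054170. It had 142, 124 and 131 CPM in Redmoon, against 2 counts over the Gold libraries, a ratio of 4587 (95% interval 1269 to 37886). Lcu.2RBY.2g078700 had 68.4, 65.0 and 76.4 CPM in Redmoon and 1 count in Gold. Lcu.2RBY.3g069330 had 58.4, 60.4 and 56.4 CPM in Redmoon and 2 counts in Gold. Lcu.2RBY.1g054110 had 45.2, 38.2 and 47.4 CPM in Redmoon and 0 counts in Gold, so it was at least 1016-fold higher. All 5 were close to or at 0 in the embryos of both cultivars, and 4 of them were also on in M11 seed coats, with Lcu.2RBY.3g069330 at 0 counts there.

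Of those on in Gold, Lcu.2RBY.3g030440 was the strongest, with 0 counts in Redmoon, against 33.2, 31.0 and 32.004 CPM in Gold, at least 301-fold lower in Redmoon. Lcu.2RBY.2g054340 had 0 counts in Redmoon, against 29.1, 29.5 and 27.5 CPM in Gold, at least 268-fold lower. Lcu.2RBY.7g004850, Lcu.2RBY.5g009290 and Lcu.2RBY.4g051990 had 0 counts in Redmoon as well and were at least 201-fold, 155-fold and 145-fold lower. Among these 5 genes, Lcu.2RBY.2g054340, Lcu.2RBY.5g009290 and Lcu.2RBY.4g051990 were expressed in embryos, at 23.3, 19.4 and 18.6 CPM in those labelled Redmoon and with 0 counts in those labelled Gold.

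The embryo state of the whole sets ran against the labels in the same way. Of the 144 genes on in Redmoon seed coats, 63 were off in the embryos labelled Redmoon and on in those labelled Gold, 24 were off in both, 57 were neither on nor off by the rule in at least 1 group, and 0 were on in Redmoon and off in Gold. Of the 118 genes on in Gold seed coats, 53 were on in embryos labelled Redmoon and off in those labelled Gold, 10 were off in both, 55 were neither, and 0 were the reverse. In M11 seed coats, 61 of the 144 were on and 52 off, and 23 of the 118 were on and 39 off, the others lying between the limits.

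**Figure D5:**
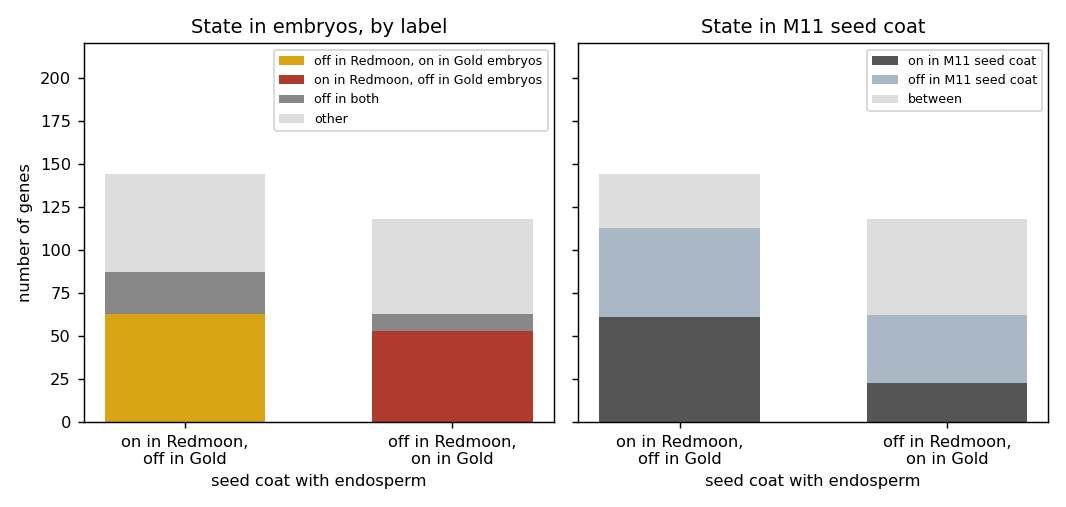
Stacked bars count the 144 genes on in Redmoon and off in Gold seed coats and the 118 genes with the reverse state, by their state in the embryo libraries as labelled (left) and in M11 seed coats (right). Every gene that was on in 1 cultivar's embryos and off in the other's had the other label than in seed coat (63 and 53 genes).

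The genes that differed lay on all chromosomes. The share of tested genes called with an absolute log2 fold change of at least 1 was lowest on chromosome 4 (22.2%) and highest on chromosome 7 (26.6%), and it was 34.0% among 494 tested genes on sequence not placed on a chromosome. In 185 windows of 100 tested genes in the order of their numbers, the share ran from 8% to 43%, with a median of 23% and quartiles of 19% and 27%. On/off genes numbered between 26 on chromosome 4 and 39 on each of chromosomes 5 and 6. Of the 249 on chromosomes, 94 had another within 10 tested genes. Among 57 such pairs of successive genes, 37 were on in the same cultivar, as were 15 of 18 pairs with no tested gene between them. No number for more distant pairs was set beside these, so whether on/off genes sit together was not tested. The order by number stands in for position, since no coordinates were used here.

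M11 was no fixed point between the cultivars. For the 1858 genes called higher in Redmoon with an absolute log2 fold change of at least 1, the mean CPM of M11 seed coats was above both cultivars for 525, below both for 665 and between them for 668. For the 2720 lower in Redmoon, these numbers were 614, 703 and 1403. M11 was nearer to Redmoon for 779 of the first set and 1490 of the second.

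The interaction of cultivar and tissue was fitted over the 12 cultivar libraries to test whether the cultivars differed unequally in seed coat and embryo. As labelled, 11977 of 20987 genes were called (57.1%, 5826 positive and 6151 negative, where positive means a greater Redmoon minus Gold difference in seed coat). With library totals in place of TMM, the split was 2703 positive and 11645 negative, so the balance of directions rests on the scaling. The median absolute difference between the tissues' log2 fold changes was 0.78, and 2240 called genes differed by at least 3. With the labels of the embryo libraries turned round, 8945 genes were called, the median was 0.58, and 886 called genes differed by at least 3. These lower numbers follow from the opposite signs given above and are no separate observation. In embryos alone, 9527 of 17232 genes were called between the cultivars (55.3%). All 15 vicilin genes tested in seed coat were called in the interaction as labelled. With TMM, 13 of the 15 had opposite signs in the tissues, against 60.6% of all genes tested in both. Among these 13, Lcu.2RBY.5g065750 had an embryo value of -0.02 that was not called (adjusted p = 0.923, edgeR). With library totals in both tissues, 10 had opposite signs, since Lcu.2RBY.3g014420, Lcu.2RBY.5g065750 and Lcu.2RBY.7g031150 then had positive values in embryos too. With that scaling, 14 of the 15 were called in the interaction as labelled. With the embryo labels turned round, all 15 remained called, and the absolute value was smaller for 13 of them. The smaller size restates the opposite signs, since turning the labels replaces the difference of the 2 tissues' values by their sum. For Lcu.2RBY.7g031050, the seed coat value of 6.58 stood beside an embryo value of -5.57. For Lcu.2RBY.1g038070, 3.45 stood beside -2.44.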

How the data were processed

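Poly(A) RNA of embryos and of seed coats with endosperm was sequenced in 18 libraries of 6 groups, 3 each. The authors deposited whole-number read counts per gene for 58243 genes in 6 files, without normalization, and all per-sample columns were mapped to samples by their labels (0 were not used). The submitters' processing notes name STAR 2.7.10. The genome build, the annotation, the counting tool and its use of strand were not given in the sources used here, so reads of overlapping or near-identical genes may have been shared.

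Groups were taken from the labels. In the main comparison, the 3 libraries labelled Redmoon and the 3 labelled Gold were fitted with edgeR 4.0.16 in R 4.3.3 (TMM scaling, filterByExpr, glmQLFit and glmQLFTest), with calls at an adjusted p under 0.05 (Benjamini-Hochberg, over all genes tested). Standard errors are the log2 fold change over the root of the F statistic. Levels are CPM of library totals. Sums per library were set against each other by an exact permutation test, two-sided. Folds against 0 counts use a floor of 3 counts over the group. The interaction used the 12 cultivar libraries. Alternatives were DESeq2 1.42.0, other scalings, filters, list and on/off limits, thinned counts, other libraries in the fit, a replicate block and each library left out. The fits were tested on simulated data.

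The genes named were the vicilin genes of the study's supplement and LcLTP3b, the 10 called genes in each direction with the widest gap between groups (lower group with 3 counts or more), the 5 strongest on/off genes in each direction, the 10 most abundant genes and the 3 most alike of the 100 most abundant. Tissue lists were ratios of mean CPM plus 0.5 in M11. The comparison and all lists were chosen with earlier results of these data known. Replicates differed from each other by more than sampling noise in every pair (chi-square per degree of freedom between 1.78 and 3.31), and none was counted as 1 sample.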

Additional observations from a re-analysis of the deposited data

Results flagged for a closer look

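The difference between Redmoon and Gold changed with the tissue, by the edgeR interaction test, for 11977 genes as labelled. A positive value means a greater Redmoon minus Gold difference in seed coat than in embryo, on the log2 scale. Among the vicilin genes the largest were 12.12 for Lcu.2RBY.7g031050, -7.55 for Lcu.2RBY.6g038550 and 5.87 for Lcu.2RBY.1g038070. Positive values were also found for Lcu.2RBY.3g014450 (4.68), Lcu.2RBY.6g038570 (4.18), Lcu.2RBY.3g014440 (3.62), Lcu.2RBY.6g038150 (3.41), Lcu.2RBY.3g008770 (2.98), Lcu.2RBY.6g038160 (2.69), Lcu.2RBY.4g077560 (2.63), Lcu.2RBY.3g014420 (2.55), Lcu.2RBY.7g031150 (1.69) and Lcu.2RBY.5g065750 (0.76). The value was -1.36 for Lcu.2RBY.6g035140 and -0.36 for Lcu.2RBY.6g038590. For LcLTP3b (Lcu.2RBY.4g013600) it was 1.04, and -0.89 with the embryo labels turned round. Its embryo difference rested on the scaling, at -0.98 with TMM and -0.36 with library totals. Its seed coat difference rested on 45 counts in Redmoon and 105 in Gold. With the labels of the embryo libraries turned round, 8945 genes were called, among them all 15 of these vicilin genes, with values between 0.66 and 1.77. The value was smaller in size for 13 of them, among them Lcu.2RBY.1g038070 (1.04), Lcu.2RBY.6g038550 (1.77) and Lcu.2RBY.7g031050 (1.05), and greater for Lcu.2RBY.6g038590 (1.54) and Lcu.2RBY.6g035140 (1.68). This only restates which of the genes had opposite signs in the 2 tissues. Groups of 3 libraries were not tested for a library far from the others.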

How the results depend on the processing

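Of the alternatives to reported values, 961 kept the direction and the side of the threshold or stayed near the value. Another 14 moved, 9 reversed and 2 became stronger. Near was taken broadly, since the 961 include 214 genes on in Redmoon at 1 CPM or more, against 144 in the main count. The count of 13168 called genes was 11821 with DESeq2, 11110 with all libraries thinned to the shallowest total, 13044 with the replicate block, and 12393 to 12991 with each library left out. With library totals alone, the median log2 fold change of all genes was -0.11 in place of -0.01, and 5332 genes were higher and 7919 lower in Redmoon. A tested log2 fold change beyond 1 left 3232 genes. Of the embryo-rich genes, 4 were lower in Redmoon when every library needed 10 counts. At a limit of 8 times, 170 embryo-rich genes were higher and 119 lower in Redmoon, and 976 and 679 seed coat-rich genes, while at a limit 4 times stricter than the one used it was 5 and 0 embryo-rich genes, and 79 and 99 seed coat-rich genes. Genes on in Redmoon numbered 69 at 5 CPM or more and 92 with 0 counts for off, and genes on in Gold numbered 56 at 5 CPM or more and 180 at 1 CPM or more. The log2 fold change of LcLTP3b was -0.021 with library totals and ran from -0.048 (without Redmoon replicate 2) to 0.16 with each library left out. With thinned counts it was 0.39, and it was called under none of these. That of Lcu.2RBY.5g033330 was -0.086 with library totals, -0.013 with no filter, -0.026 with 10 counts in every library, -0.00027 with all 9 seed coat libraries, -0.00092 with thinned counts, and from -0.015 to 0.037 with each library left out. Lcu.2RBY.1g014550 and Lcu.2RBY.1g034960 were called with library totals, at -0.11 and -0.12. The cause of these changes was not tested, apart from the limits that set a list's own size.

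Same-numbered libraries of the cultivars did not deviate together (r between -0.02 and 0.01), so the numbers do not pair them. The replicate block changed no call of a vicilin gene and gave 11865 calls in the interaction. The Gold libraries were deeper than the Redmoon libraries, so a gene at 0 counts in Redmoon is bounded less tightly than 1 at 0 counts in Gold. The embryo library Gold replicate 3 was shallow, with 3270275 counts. The ratio intervals cover counting error only.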
